A study of Mus musculus with 2 samples.

Results

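The 7 genes Cars, Farsa, Farsb, Nars, Sars, Tars and Vars encode cytosolic aminoacyl-tRNA synthetases, the enzymes that attach amino acids to their tRNAs. They were chosen by Ensembl identifier, as the synthetase genes left once separate lists were set apart. Those lists held Gars, other synthetase genes linked to neuropathy, those of the multisynthetase complex and the mitochondrial ones. A place outside the neuropathy list does not show that a gene has no link to neuropathy. All 7 of 7 chosen genes were listed among the 12530 mouse genes. Ribosome-protected fragments, the stretches of mRNA that a translating ribosome shields from RNase I, were sequenced from mouse spinal cord. The HET library came from animals with 1 C201R allele of Gars beside a wild-type allele (GarsC201R/+), and the WT library from wild-type animals. Gars encodes glycyl-tRNA synthetase. There was 1 library per genotype, each from the pooled lysates of 3 animals, and the labels give neither age nor sex.

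A synthetase activates its amino acid with ATP and transfers it to tRNA, which elongation factors then carry to the ribosome. Cytosolic protein synthesis needs each of the amino acids these genes serve, so all cells of the spinal cord are expected to use them. Cars and Vars encode class I enzymes, and Farsa, Farsb, Nars, Sars and Tars class II enzymes, which have an unrelated catalytic fold. In mammals, many genes of cytosolic synthetases are also targets of ATF4, the transcription factor of the integrated stress response.

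The listed gene reads summed to 3491159 in the HET library and 7770935 in the WT library, so a gene of equal level has fewer reads in HET. Synthetic ERCC spike-ins made up 0.650% of the listed reads in HET and 0.00669% in WT, and directions below are relative to the gene reads. Levels are given as RPKM, deposited values in which reads are divided by gene length and by library total. The series holds no RNA library, so the level of an mRNA and the ribosomes per mRNA cannot be told apart, nor can fewer cells and less signal per cell. Because each genotype is a single pooled library, no difference could be set against replicate spread, and the intervals cover counting error only. The tables and the reference table pair no identifier with a symbol, so markers of spinal cord cell types, Gars and the lists of other synthetase and ATF4 target genes were not analysed here.

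Promoter sequences from RefSeq (GRCm38.p6) were at hand for 4 of the 7 genes, Farsa, Farsb, Sars and Tars. All 4 are shown, and none was picked by its motifs. Each is the 250 bases before an annotated transcript start, 5′ to 3′ on the gene's strand, and capitals mark matches to 3 motifs searched on both strands. These were the C/EBP-ATF response element (CARE, TGATGNAA), the E-box (CACGTG) and the ETS motif (CCGGAAG). ATF4 binds elements of the CARE kind, and MYC, USF and TFEB bind the E-box. No matches overlapped. Sars lies at chr3:108445260-108445509 (minus strand), Tars at chr15:11399659-11399908 (minus strand), Farsa at chr8:84856736-84856985 (plus strand) and Farsb at chr1:78488898-78489147 (minus strand). The Farsa window belongs to a start downstream of the outermost one, so its last 17 bases lie inside the gene span given below, while the other windows end at their gene spans.
Sars: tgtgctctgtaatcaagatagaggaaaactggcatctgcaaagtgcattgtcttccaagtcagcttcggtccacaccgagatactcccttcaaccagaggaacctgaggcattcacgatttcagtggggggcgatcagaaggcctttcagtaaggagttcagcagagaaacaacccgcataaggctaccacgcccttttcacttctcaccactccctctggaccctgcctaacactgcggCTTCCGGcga
Tars: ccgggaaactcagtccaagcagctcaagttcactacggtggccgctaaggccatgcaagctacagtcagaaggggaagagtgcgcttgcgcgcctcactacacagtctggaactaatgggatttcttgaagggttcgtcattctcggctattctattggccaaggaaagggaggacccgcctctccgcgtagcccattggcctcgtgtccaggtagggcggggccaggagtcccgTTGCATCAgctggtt
Farsa: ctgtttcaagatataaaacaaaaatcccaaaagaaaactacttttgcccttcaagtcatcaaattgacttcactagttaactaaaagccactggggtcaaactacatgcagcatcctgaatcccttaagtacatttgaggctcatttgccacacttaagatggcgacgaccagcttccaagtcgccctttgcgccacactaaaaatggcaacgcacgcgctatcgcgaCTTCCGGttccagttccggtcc
Farsb: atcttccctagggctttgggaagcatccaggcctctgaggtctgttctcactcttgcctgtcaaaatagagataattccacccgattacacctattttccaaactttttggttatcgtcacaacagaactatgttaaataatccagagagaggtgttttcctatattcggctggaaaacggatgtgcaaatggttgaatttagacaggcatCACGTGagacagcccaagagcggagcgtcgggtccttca

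The Tars window held the single CARE match in these 4 windows, read on the opposite strand from 15 to 8 bases before the start. A CARE match was present in 3.45% of the 32851 promoter windows of this length. The ETS motif stood from 10 to 4 bases before the Sars start and from 22 to 16 bases before the Farsa start used here, across the outer edge of the Farsa span, in both on the opposite strand, and was present in 6.91% of all windows. Farsb held an E-box from 39 to 34 bases before its start, a motif present in 6.02% of all windows. A match describes the letters of these windows and does not show that a factor binds there.

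Sars, which encodes seryl-tRNA synthetase, had the highest RPKM of the group in both libraries. Nars had more reads in both, so this place rests on the lengths behind the RPKM, 1866 nt for Sars and 2745 nt for Nars. The Sars enzyme also loads serine onto the tRNA of selenocysteine, the first step towards selenoproteins. The gene spans chr3:108424864-108445259 (GRCm38.p6). Sars (ENSMUSG00000068739) had 1252 reads in HET (95% Poisson interval 1184 to 1323) and 3629 reads in WT (3512 to 3749). That was 190.6 RPKM in HET and 249.6 RPKM in WT, which placed Sars at rank 296 of the 12530 genes in HET and at rank 208 in WT. After scaling by TMM, which sets the bulk of genes equal, its log2 ratio of HET over WT was -0.43 (95% counting interval -0.53 to -0.34), a level 26.0% lower in HET.

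Nars, which encodes asparaginyl-tRNA synthetase, stood close to Sars in both level and ratio. The gene spans chr18:64499655-64516515. Nars (ENSMUSG00000024587) had 1475 reads in HET (1401 to 1552) and 4379 reads in WT (4250 to 4511). These corresponded to 152.6 RPKM in HET, at rank 373, and 204.8 RPKM in WT, at rank 277. Its log2 ratio was -0.47 (-0.56 to -0.38), a level 27.8% lower in HET. Nars and Sars were the only members above 100 RPKM, a level reached by 4.95% of all genes in HET and 4.98% in WT.

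The phenylalanyl enzyme is a heterotetramer, in which Farsa encodes the catalytic alpha subunit and Farsb the beta subunit, whose domain removes wrongly attached tyrosine. Farsa (ENSMUSG00000003808, chr8:84856969-84869257) had 163 reads in HET (139 to 190) and 304 in WT (271 to 340), or 25.4 RPKM in HET and 21.4 RPKM in WT. Farsb (ENSMUSG00000026245, chr1:78417958-78488897) had 217 reads in HET (189 to 248) and 509 in WT (466 to 555), or 30.3 RPKM in HET and 32.1 RPKM in WT. The log2 ratio was 0.20 for Farsa (-0.082 to 0.48) and -0.13 for Farsb (-0.37 to 0.10), and both intervals included equal levels. Per length, Farsa stood at 0.838 of Farsb in HET (0.679 to 1.03) and at 0.666 in WT (0.576 to 0.769). The Farsa level was thus below that of Farsb beyond counting error in WT, while in HET the interval reached equality. The change in this balance between the libraries was itself within counting error, with a ratio of the HET over WT ratios of 1.26 (95% interval 0.973 to 1.62).

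Tars encodes threonyl-tRNA synthetase and had the lowest RPKM of the group in both libraries. In WT it was not separated from Cars beyond counting error. The RPKM values rest on a length of 4005 nt for Tars and 3222 nt for Cars, and Cars had fewer reads in WT. Tars (ENSMUSG00000022241, chr15:11383663-11399658) had 170 reads in HET (145 to 198) and 439 reads in WT (399 to 482). These were 12.1 RPKM in HET and 14.1 RPKM in WT, above the median gene at 8.63 RPKM in HET and 8.40 RPKM in WT. The log2 ratio of Tars was -0.27 (-0.53 to -0.0093), so that its interval fell just short of equal levels. It included equal levels when libraries were scaled to total gene reads (-0.48 to 0.044).

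The genes of the class I enzymes had point estimates above equal levels, as Farsa did, and intervals that included them. Vars encodes valyl-tRNA synthetase, which in vertebrates binds elongation factor eEF1 rather than the multisynthetase complex. Vars (ENSMUSG00000007029, chr17:35000907-35016329) had 403 reads in HET (365 to 444) and 813 reads in WT (758 to 871), or 27.7 RPKM in HET and 25.2 RPKM in WT. Its log2 ratio was 0.088 (-0.088 to 0.26). Cars, for cysteinyl-tRNA synthetase, is ENSMUSG00000010755 and spans chr7:143557230-143600090. Cars had 202 reads in HET (175 to 232) and 368 in WT (331 to 408), or 17.8 RPKM in HET and 14.7 RPKM in WT. The log2 ratio of Cars was 0.23 (-0.020 to 0.49). Scaling to total gene reads moved the Cars interval above equal levels (0.034 to 0.54).

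**Figure D1:**
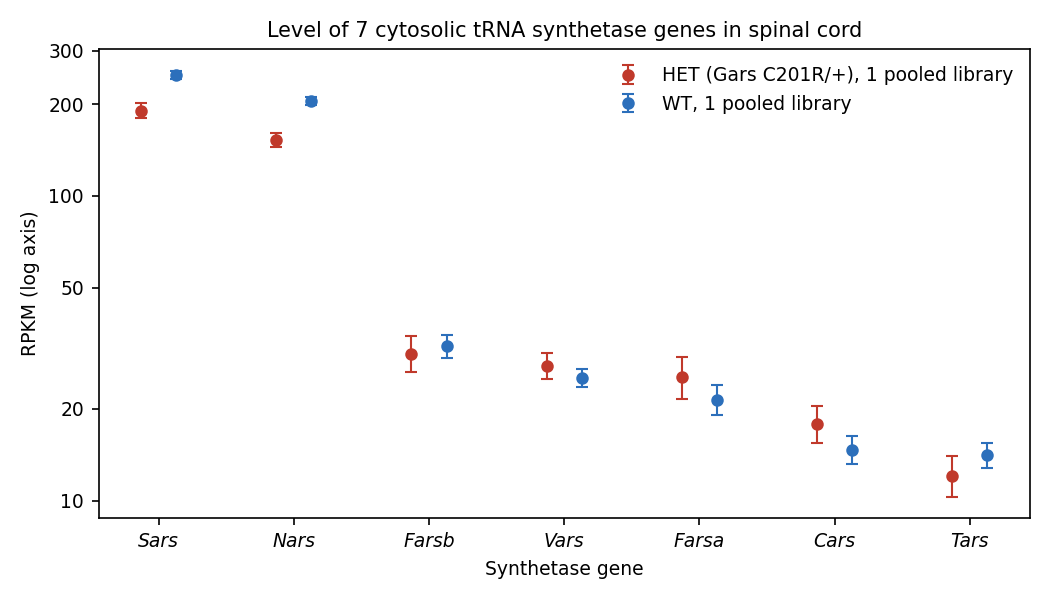
Level of the 7 synthetase genes in RPKM (log axis) in the HET library (red, left of each pair) and the WT library (blue, right), 1 pooled library each, with exact 95% Poisson intervals. Sars and Nars lie between 152.6 and 249.6 RPKM in both libraries, and the other 5 genes between 12.1 and 32.1 RPKM.

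The group was thus split by level, with a gap between Nars and the next gene. Nars stood 5.04-fold above Farsb per length in HET (interval 4.17 to 6.15) and 6.38-fold in WT (5.64 to 7.24), with intervals adjusted by Bonferroni over the 6 neighbouring pairs of each library. The order from high to low was Sars, Nars, Farsb, Vars, Farsa, Cars and Tars in both libraries. Sars exceeded Nars by 1.25-fold in HET (1.13 to 1.38) and by 1.22-fold in WT (1.15 to 1.29). Vars and Farsa did not differ beyond counting error in either library, with ratios of 1.09 in HET (0.854 to 1.41) and 1.18 in WT (0.988 to 1.42). Farsb and Vars could not be separated in HET, at 1.09 (0.871 to 1.37), but were in WT, at 1.27 (1.09 to 1.48). Cars and Tars were separated in HET, at 1.48 (1.12 to 1.96), and not in WT, at 1.04 (0.862 to 1.26). Farsa exceeded Cars in both, by 1.42-fold in HET (1.07 to 1.89) and 1.46-fold in WT (1.18 to 1.79). A separation in 1 library only does not show a change between the libraries. The HET over WT ratio of Farsb was 0.860 times that of Vars (0.628 to 1.17, adjusted over 21 pairs of genes). That of Cars was 1.42 times that of Tars, with an adjusted interval that included 1 (0.960 to 2.10) and a single 95% interval that did not (1.10 to 1.83). The levels and their order rest on the gene lengths behind the RPKM values, from 1826 nt for Farsa to 4137 nt for Vars. These lengths may include untranslated parts that carry few ribosomes. The intervals cover counting error and not the choice of length. Whether the order, with Sars above Nars, holds per coding length was not tested.

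Read as a composition, which no scaling of the libraries can move, Sars made up 41.8% of the summed RPKM of the 7 genes in HET and 44.4% in WT. Nars made up 33.4% in HET and 36.4% in WT. Cars took 3.90% in HET and 2.61% in WT, Farsa 5.56% in HET and 3.80% in WT, and Vars 6.06% in HET and 4.49% in WT. The shares of Farsb, at 6.63% in HET and 5.71% in WT, and of Tars, at 2.64% in HET and 2.50% in WT, lay closer together. Shares of a whole depend on each other, so smaller shares of Sars and Nars enlarge the rest. Farsb and Tars had larger shares in HET although their log2 ratios of HET over WT were below 0. Of the reads counted for the group, Nars and Sars held 70.2% in HET (95% exact binomial interval 68.8% to 71.7%) and 76.7% in WT (75.9% to 77.5%).

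**Figure D2:**
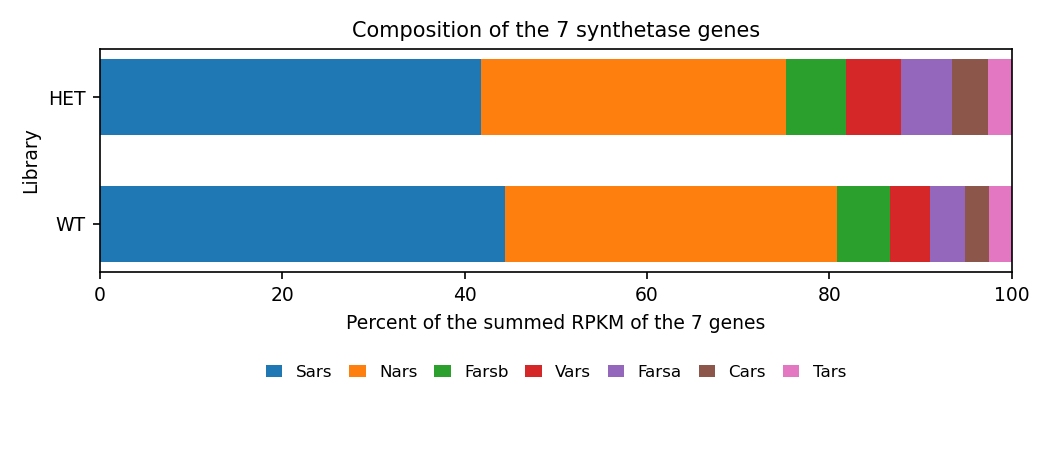
Share of each gene in the summed RPKM of the 7 synthetase genes (percent), with the HET library above the WT library. Sars and Nars together fill most of both bars, with 41.8% and 33.4% in HET and 44.4% and 36.4% in WT.

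A gene counted as higher or lower in HET if its reads in both libraries summed to 100 or more, equal levels lay outside its counting interval and its ratio was at least 1.5-fold. All 7 genes had enough reads, and 0 of them were higher and 0 lower by this rule. Among all 9726 genes with enough reads, 19.3% passed it, 8.14% higher and 11.2% lower. Without the fold limit, 3 of the 7 genes were lower (Nars, Sars and Tars) and 0 were higher, where 51.9% of all tested genes differed, 28.2% lower and 23.7% higher. Counting intervals narrow as reads rise, and these shares were not taken among genes with as many reads as Nars and Sars. Tars did not pass when libraries were scaled to total gene reads. The median log2 ratio of the 7 genes was -0.13, and that of all tested genes was -0.034. By point estimate 4 genes were lower in HET and 3 higher.

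**Figure D3:**
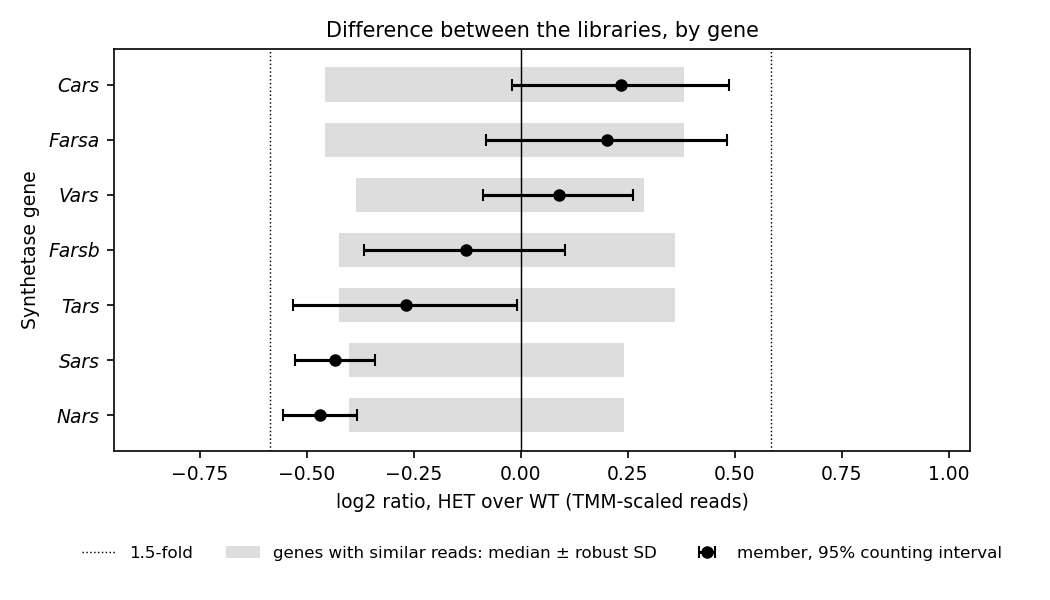
Log2 ratio of HET over WT for each of the 7 genes (points) with the 95% counting interval (bars), ordered by ratio. Grey bands give the median ± robust SD of the genes in the same one of 10 groups by reads, and dotted lines mark 1.5-fold. The intervals of Nars, Sars and Tars lie below 0, and no point reaches 1.5-fold.

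Set against genes of similar coverage, the differences were small or moderate. Tested genes were ordered by reads and divided into 10 groups. In the best covered group, which holds Nars and Sars, the log2 ratio had a median of -0.081 and a robust SD of 0.32 (the median absolute deviation scaled to an SD, 973 genes). Relative to that median Nars lay at -1.21 and Sars at -1.10 of these SDs, and 11.9% of those genes were at or below Nars and 14.4% at or below Sars. The other 5 genes lay within 0.650 SDs of the median of their own group, where the robust SD was between 0.34 and 0.42. The picture by level was similar. The 619 tested genes with a mean of 100 RPKM or more had a median log2 ratio of -0.046, with 12.8% of them at or below Nars and 15.3% at or below Sars. How much of this spread belongs to genotype, animals or library preparation cannot be told apart.

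**Figure D4:**
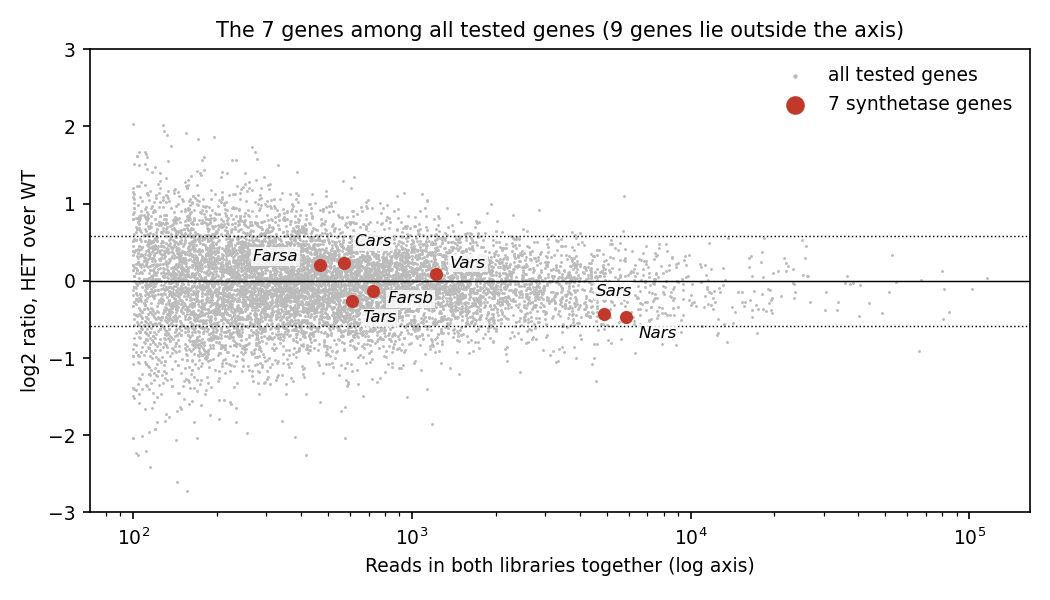
Log2 ratio of HET over WT against the reads in both libraries together (log axis), for all 9726 tested genes (grey) and the 7 synthetase genes (red). Dotted lines mark 1.5-fold and 9 genes lie outside the axis. Nars and Sars sit together at the right, at -0.47 and -0.43, inside the range of genes with similar reads.

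The 7 genes did not share a single ratio within counting error. Of the 21 pairs of genes, 6 had HET over WT ratios that differed, by exact conditional intervals adjusted by Bonferroni over the 21 pairs. Each of the 6 set Nars or Sars against Cars, Farsa or Vars. The Cars ratio was 1.63 times that of Nars (adjusted interval 1.22 to 2.16) and 1.59 times that of Sars (1.19 to 2.12). Farsa stood at 1.59 times Nars (1.16 to 2.17) and 1.55 times Sars (1.13 to 2.13). Nars stood at 0.680 of Vars (0.552 to 0.838) and Sars at 0.696 of Vars (0.563 to 0.862). Between Nars and Sars the ratio of ratios was 0.976 (0.852 to 1.12). For the other 15 pairs the adjusted intervals included 1, which does not show that those genes behaved alike. The share of differing pairs among all tested genes was not computed, so 6 of 21 is not shown to be particular to these genes. By counting intervals without a fold limit, 51.9% of all tested genes differed between the libraries.

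Summed over the 7 genes, 3882 reads in HET and 10441 reads in WT gave a log2 ratio of -0.33 (-0.38 to -0.27). This interval covers counting error only. Single genes of the best covered group had a median log2 ratio of -0.081 and a robust SD of 0.32. The sum over the 7 genes rested on Nars and Sars, which alone gave -0.45 (-0.52 to -0.39). The other 5 genes, with 1155 reads in HET and 2433 in WT, gave 0.026 (-0.076 to 0.13). The interval of that sum included equal levels. The split between the pair with the most reads and the rest was chosen after the values were seen.

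The genes nearest to Nars in level in both libraries, by Euclidean distance over the log2 RPKM of the 2 libraries, were ENSMUSG00000009549 and ENSMUSG00000020917, at distances of 0.054 and 0.077. ENSMUSG00000009549 had 158.4 RPKM in HET and 204.9 RPKM in WT, and ENSMUSG00000020917 had 155.9 RPKM in HET and 215.1 RPKM in WT. Neither has a symbol in the tables used here.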

How the data were processed

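Ribosome-protected fragments of mouse spinal cord were measured in 1 HET and 1 WT library, each from 3 pooled animals, per the labels' protocols. Per the submitters' processing notes, the tools were Bowtie 1.2.2 and HTSeq 0.9.1 and the build GRCm38. How they were set, which annotation was used, whether strand was used and which part of a gene was counted is not given in the sources used here, so reads shared with near-identical or overlapping genes could not be separated. Per the file headers, the authors deposited whole read counts and RPKM values for each gene. Dividing the counts by the RPKM values the authors deposited gave, up to a constant, gene length times a library total. That total was taken as the greatest common divisor over all rows, 3520348 reads in HET and 7790126 in WT. The lengths are whole numbers, within 1e-06 nt, because of this step. They were identical in both libraries.

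The 18 ERCC spike-ins were left out, and library sizes were scaled by TMM in edgeR 4.0.16 (R 4.3.3) over all 12530 genes. Log2 ratios used a prior count of 0.5 scaled to library size. Ratio intervals are exact conditional binomial (Clopper-Pearson) intervals at 95%, and single counts have exact Poisson intervals. Reads may not be independent molecules, and the intervals cover counting error only. No p-value between genotypes was computed. Alternatives used DESeq2 1.42.0 size factors, other scalings, prior counts, limits and thinning of WT reads. Intervals were computed with scipy 1.17.1, and tables and plots were made with pandas 2.3.3 and matplotlib 3.10.9 under Python 3.11.15.

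The 7 members, whose symbols were given with the choice of identifiers, and the lists were chosen with earlier results of these data known. All members are named, with the 2 identifiers nearest in level to the member furthest from equal levels. RefSeq positions and promoters were matched by symbol, since 0 of its 49997 entries hold an Ensembl identifier. Protein sequences and coding lengths were not used here.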

Additional observations from a re-analysis of the deposited data

How the results depend on the processing

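The sign of the log2 ratio of each of the 7 genes was kept under all 6 alternatives (total-count, DESeq2 and upper-quartile scaling, no prior count, a prior count of 2, and WT reads thinned to the HET depth), and no ratio moved out of its counting interval. A scaling shifts all genes by nearly the same amount, prior counts moved the ratios little, and thinning was 1 random draw. The kept signs are therefore a limited check. Nars lay between -0.47 and -0.42, Sars between -0.44 and -0.38, Cars between 0.23 and 0.29 and Farsb between -0.13 and -0.075. Farsa lay between 0.066 and 0.25, Vars between 0.035 and 0.14 and Tars between -0.27 and -0.14, and thinning gave the value nearest to 0 of each of these 3 genes. The interval of Tars included equal levels under total-count and upper-quartile scaling and after thinning, and that of Cars lay above equal levels under those 2 scalings. The median of the 7 genes lay between -0.13 and -0.075, and without Nars and Sars, chosen after seeing the data, it was 0.088. The summed reads turned to 0.026 without Nars and Sars, because those genes hold most of the reads. No fold limit gave 3 genes lower, by its construction. The other 9 alternatives left 0 higher and 0 lower, among them a minimum of 500 reads, which left out Farsa. The shares over all tested genes varied between these settings. At a 2-fold limit 1.71% were higher and 2.75% lower. A minimum of 500 reads gave 3.53% and 7.77%, and a minimum of 20 reads gave 10.9% and 11.1%. Thinning, chosen here after seeing the data, gave 5 of 21 distinct pairs in place of 6. Coding length in place of the length behind the RPKM was not run for the order of levels, for Farsa over Farsb or for the shares. No paired analysis was possible because there is 1 library per genotype, and for the same reason no replicate could be left out.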
